A study of Mus musculus with 24 samples.

Results

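Pyroptosis is a lytic form of inflammatory cell death, and the 10 genes described here encode its main parts: Gsdmd, Gsdme, Casp1, Casp4, Nlrp3, Pycard, Il1b, Il18, Aim2 and Ninj1. They were chosen by name and matched to the deposited tables by Ensembl identifier, and all 10 were found, among 36109 lung genes and 36595 retina genes listed. After the filter on low counts all 10 were tested in the lung, among 16819 genes, and 8 in the retina, among 19173, where Nlrp3 and Il1b were too low. The study asked how loss of gasdermin D alters the response of the newborn lung and retina to hyperoxia.

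RNA sequencing covered 12 lungs and 12 retinas of separate mice, in 4 groups of 3 per tissue. WT-RA and WT-O2 were wildtype mice in room air or hyperoxia, and KO-RA and KO-O2 were their GSDMD-KO littermates, homozygous for a global CRISPR/Cas9 deletion of 38 bp in exon 5 of Gsdmd on a C57/B6 background. The lungs came from mice kept in 85% or 21% O2 from postnatal day 1 to 14 and collected on day 15. The retinas came from mice kept in 75% O2 from day 7 to 12 and then returned to room air, or held in room air, and collected on day 18. The lung therefore was sampled at the end of the exposure and the retina after recovery. The deletion is carried in every cell of the body, and whole tissue was sequenced, so fewer cells of a type and less RNA per cell cannot be told apart.

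In the canonical pathway a sensor such as NLRP3 or AIM2 assembles with the adaptor ASC, encoded by Pycard, into an inflammasome that activates caspase-1. Caspase-1 matures IL-1β and IL-18 and cleaves gasdermin D, whose N-terminal part forms pores in the plasma membrane. Mouse caspase-11, encoded by Casp4, cleaves gasdermin D on sensing cytosolic lipopolysaccharide, gasdermin E is cleaved by caspase-3, and NINJ1 carries out the rupture of the membrane after the pores have formed. Much of this machinery is present as inactive protein before a signal arrives, so RNA levels describe its supply and not its activation.

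The exon that carries the deletion is shown because it bears on how the Gsdmd counts are read. In transcript Gsdmd-201 of GENCODE vM21 (GRCm38), exon 5 of 11 is wholly coding and lies on the plus strand at chr15:75865423-75865525, spanning 103 bases of a transcript of 1792. That the numbering of the study follows this transcript was not tested, and no base is in capitals because the place of the 38 bp within the exon was not given in the sources used here. A loss of 38 bases leaves 2 bases past whole codons and so shifts the reading frame. The exon reads as follows.
Gsdmd exon 5: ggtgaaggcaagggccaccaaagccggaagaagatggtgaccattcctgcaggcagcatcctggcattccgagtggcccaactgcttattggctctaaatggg

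Casp4 and Ninj1 were the members that rose with hyperoxia in the lungs of both genotypes under every alternative tried, and the bases before their starts are shown for that reason. RefSeq promoter windows on GRCm38.p6 were found for 9 of the 10 members, with no entry used for Gsdmd. The 250 bases before each start were searched on both strands for TGANTCA (AP-1), the interferon-stimulated response element by its usual core, TGACNNNGC (antioxidant response element), TTCNNNGAA (STAT), TTGCNNAA (C/EBP), GAGGAAGT (PU.1) and the NF-kB motif. The Casp4 window, on the plus strand at chr9:5308599-5308827 as printed, held 3 NF-kB matches, 2 of which overlap, and the capitals mark them. The NF-kB motif was found in 7.25% of 32851 such windows. It was also found in a window of Nlrp3, which did not pass in the lung. Pycard held a C/EBP and a PU.1 match and Aim2 a PU.1 match, motifs found in 9.56% and 2.44% of all windows. The windows of Gsdme, Casp1, Il1b and Il18 held none. The Ninj1 window, on the plus strand at chr13:49187279-49187484 as printed, held no match to any of these motifs and has no capitals. Both sequences stop before the gene start annotated in GENCODE, and a match is a description of letters only.
Casp4: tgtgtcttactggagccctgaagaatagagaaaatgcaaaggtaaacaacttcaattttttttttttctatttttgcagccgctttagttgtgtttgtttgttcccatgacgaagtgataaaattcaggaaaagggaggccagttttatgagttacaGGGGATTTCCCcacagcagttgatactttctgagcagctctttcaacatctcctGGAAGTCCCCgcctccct
Ninj1: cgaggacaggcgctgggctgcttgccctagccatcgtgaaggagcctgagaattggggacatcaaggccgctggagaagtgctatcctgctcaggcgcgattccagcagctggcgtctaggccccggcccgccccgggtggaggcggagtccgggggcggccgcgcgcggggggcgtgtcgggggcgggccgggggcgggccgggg

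Levels are given in CPM, counts scaled to one library size with TMM factors, so that libraries of different depth can be compared. The estimated counts of a library summed to 28763661 to 29604254 in the lung and to 24863257 to 29093035 in the retina. A gene passed a comparison at an adjusted p under 0.1 in the quasi-likelihood test of edgeR, adjusted by Benjamini-Hochberg over all genes tested, and the adjusted p values that follow come from that test. Sftpc, the surfactant gene that defines the lung, marked the lungs as labelled, and 12 markers of retinal neurons summed to 1192 to 2058 CPM in the retinas against 276 to 362 CPM in the lungs. Some libraries stood apart. Markers of lens, cornea and skin summed to 13075, 45480 and 18497 CPM in the retinas WT-RA 2, WT-RA 3 and KO-RA 3, against at most 229.5 CPM in the other retinas. In the lung KO-O2 1, liver markers summed to 175 CPM, against at most 2.68 in the others. Erythroid markers summed to 2951 to 4187 CPM in WT-O2 lungs and to 6014 to 29964 in KO-O2 lungs. Sex moved with the groups: Y-linked expression was seen in 0 WT-RA lungs, 1 WT-O2 lung, 2 KO-RA lungs and all 3 KO-O2 lungs, and in all 3 retinas of each room air group against 1 of each hyperoxia group.

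Gsdmd (ENSMUSG00000022575, chr15:75862327-75867408) encodes the pore former itself, and its RNA was counted in the KO lungs at a reduced level. The level was 41.4, 42.3 and 40.6 CPM in the WT-RA lungs, 32.1, 36.4 and 34.8 in WT-O2, 24.8, 24.5 and 22.6 in KO-RA, and 11.7, 13.1 and 16.3 in KO-O2. The 4 groups did not overlap, and each KO lung lay below every WT lung. Gene counts take in bases outside the deletion, so a remaining level does not bear on the deletion itself. Against the WT group under the same air, the log2 fold change was -0.79 ± 0.11 (SE, adjusted p = 0.0135) in room air and -1.33 ± 0.11 (adjusted p = 8.3e-05) in hyperoxia.

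In these counts Gsdmd also fell with hyperoxia in both genotypes. The mean went from 41.4 ± 0.885 to 34.4 ± 2.15 CPM in WT (SD, n = 3), a log2 fold change of -0.27 ± 0.10 (SE, adjusted p = 0.0533). It went from 24.0 ± 1.19 to 13.7 ± 2.38 CPM in KO, a log2 fold change of -0.81 ± 0.11 (adjusted p = 4.5e-05). With erythroid markers as a covariate the WT value was -0.53. These markers summed to 15797 to 18192 CPM in WT-RA and 2951 to 4187 in WT-O2. In WT the covariate thus follows exposure and cannot separate blood content from hyperoxia, for this member or those below. The fall in KO passed under all 18 alternatives tried and the fall in WT under 14. The WT call was lost without WT-RA 1, WT-RA 2, WT-O2 1 or WT-O2 3, where the values were -0.27, -0.25, -0.22 and -0.27. The difference between the falls was -0.54 ± 0.15 on the log2 scale, with an unadjusted p of 0.00276 and an adjusted p of 0.42, so it did not pass. For KO against WT in room air the call, but little of the difference, was lost with Y-linked expression as a covariate (-0.78, adjusted p = 0.126) and without KO-RA 3 (-0.75, adjusted p = 0.129). The call in hyperoxia was lost with erythroid markers as a covariate (-1.08 ± 0.18, SE, adjusted p = 0.198). These markers were lower in every WT-O2 lung than in any other lung, so the covariate follows that group. For that reason it cannot separate blood content from genotype here. With it 0 genes of the whole table were called in this comparison, and 4 in the main fit. Sex and blood content beyond these covariates was not tested. By qRT-PCR the study reported the other direction in WT lungs, a rise of Gsdmd with hyperoxia, and hardly any Gsdmd in KO lungs. Its immunostaining, which reads protein, found no detectable GSDMD in KO lungs. Why the counts differ from the qRT-PCR was not tested.

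Gsdme (ENSMUSG00000029821, on chromosome 6), the gasdermin of the caspase-3 route, passed no comparison. Its lung level ranged from 3.20 CPM in a WT-RA lung to 5.53 in a KO-O2 lung, and the groups overlapped. The log2 fold change with hyperoxia was 0.20 (95% interval -0.20 to 0.60) in WT and 0.21 (-0.19 to 0.61) in KO. Of the 10 gasdermins and related genes on the wider list 3 were tested in the lung, and Gsdmd alone passed.

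**Figure D1:**
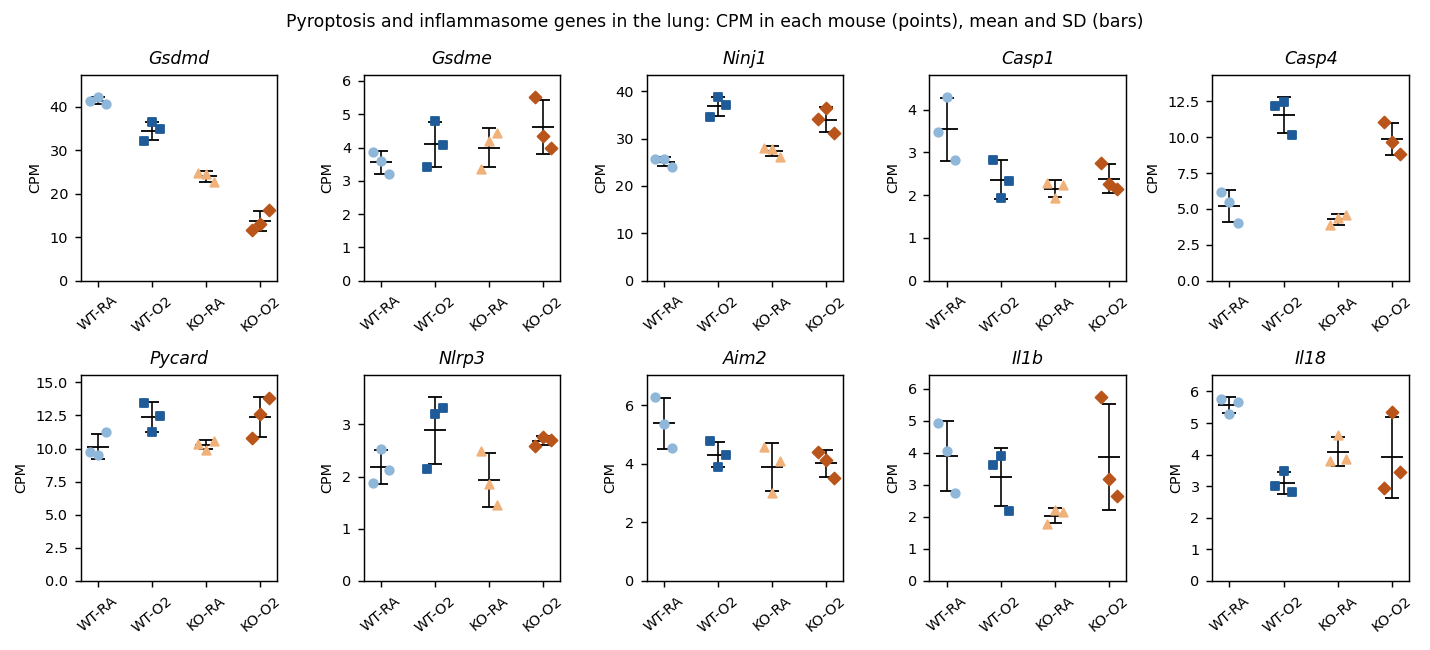
CPM (vertical axes, from 0) of the 10 genes in every lung, with the 4 groups along the horizontal axes. Points are single mice and bars the mean and SD of 3. Gsdmd steps down over the 4 groups without overlap, while Casp4 and Ninj1 are higher in every hyperoxia lung than in every room air lung of the same genotype.

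Of the 10 members, 6 passed in WT lungs with hyperoxia and 5 in KO lungs. These counts have to be read against the whole tables, in which 49.2% and 46.7% of the genes tested passed the same comparisons. In WT lungs 3 rose (Casp4, Pycard and Ninj1) and 3 fell (Gsdmd, Casp1 and Il18). In KO lungs 4 rose (Casp4, Pycard, Il1b and Ninj1) and Gsdmd fell. The median log2 fold change of the 10 was -0.03 in WT and 0.24 in KO, beside -0.01 in both for all genes tested. Of all genes, 24.5% rose and 24.7% fell in WT, and 23.3% rose and 23.4% fell in KO. The groups did not overlap for 5 of the 10 in WT and 6 in KO, against 49.8% and 52.4% of all genes. When a fold of 2 was required as well, Casp4 was the member called in each, against 11.6% and 10.6% of all genes.

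Casp4 (ENSMUSG00000033538, chr9:5308828-5336783), the sensor of cytosolic lipopolysaccharide, had the largest rise with hyperoxia among the members in the lung. It was counted at 6.18, 5.52 and 3.99 CPM in WT-RA and at 12.2, 12.4 and 10.1 in WT-O2. In the KO lungs the level was 3.86, 4.38 and 4.58 CPM in KO-RA and 11.1, 9.70 and 8.83 in KO-O2. Every hyperoxia lung stood above every room air lung. The log2 fold change was 1.15 ± 0.16 (SE, adjusted p = 6.8e-05) in WT and 1.21 ± 0.17 (adjusted p = 5.5e-05) in KO, and both passed under all 18 alternatives. The difference between the rises was 0.06 on the log2 scale, with a 95% interval of -0.43 to 0.56. KO-RA against WT-RA gave -0.29 ± 0.17 and KO-O2 against WT-O2 -0.23 ± 0.16, and neither passed.

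Casp1 (ENSMUSG00000025888), the caspase of the canonical inflammasome, lies directly before Casp4 on chromosome 9 and moved the other way in WT lungs. Its level was 3.49, 4.31 and 2.82 CPM in WT-RA and 2.83, 1.93 and 2.33 in WT-O2, with slight overlap. In KO it was 2.29, 1.93 and 2.24 CPM in room air and 2.76, 2.27 and 2.14 in hyperoxia, so that the WT-RA lungs stood above the KO-RA lungs without overlap. The fall in WT was -0.58 ± 0.21 on the log2 scale (SE, adjusted p = 0.0384). The call was lost without WT-RA 2 (-0.41, adjusted p = 0.179), without WT-O2 2 (-0.45, adjusted p = 0.141) and with erythroid markers as a covariate (-0.49 ± 0.39, adjusted p = 0.409). That covariate follows exposure in WT, so it cannot separate blood content from hyperoxia. The change in KO was 0.15 ± 0.22 and did not pass. KO-RA against WT-RA gave -0.72 ± 0.21, with an unadjusted p of 0.00437 and an adjusted p of 0.208, and it passed only without WT-RA 3.

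Pycard (ENSMUSG00000030793, on chromosome 7) encodes ASC, the adaptor that links sensors to caspase-1. Its lung level was 9.74, 9.49 and 11.2 CPM in WT-RA, 13.5, 11.2 and 12.4 in WT-O2, 10.4, 9.89 and 10.6 in KO-RA, and 10.8, 12.6 and 13.8 in KO-O2. Within a genotype the hyperoxia lungs lay above the room air lungs, by a narrow margin. The rises were 0.29 ± 0.12 in WT (SE, adjusted p = 0.0714) and 0.27 ± 0.12 in KO (adjusted p = 0.0896), the smallest changes among the members that rose in both. They passed under 10 and 6 of 18 alternatives, with adjusted p from 0.0357 to 0.871 in WT and 0.0466 to 0.302 in KO. With erythroid markers as a covariate, which follows exposure in WT, the WT value was 0.06 ± 0.20.

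Both sensors among the members stayed below the threshold in the lung. Nlrp3 (ENSMUSG00000032691), the sensor of potassium efflux and many danger signals, was counted at 1.88 to 2.52 CPM in WT-RA and 2.15 to 3.31 in WT-O2, which overlapped. It was counted at 1.46 to 2.49 CPM in KO-RA and 2.59 to 2.76 in KO-O2, which did not. The log2 fold change was 0.40 ± 0.23 in WT (SE, adjusted p = 0.179) and 0.47 ± 0.23 in KO (adjusted p = 0.127), and it passed only without WT-O2 1 in WT and only without KO-RA 1 in KO. Aim2 (ENSMUSG00000037860), the sensor of cytosolic DNA, ranged from 3.00 CPM in a KO-RA lung to 6.28 in a WT-RA lung. Its log2 fold change was -0.32 ± 0.19 in WT and 0.05 ± 0.19 in KO, and the groups overlapped. The WT value passed only without WT-RA 3 (-0.43, adjusted p = 0.0959).

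Ninj1 (ENSMUSG00000037966, chr13:49187485-49196244), the membrane rupture protein, was the other member that rose in every setting in the lung. The level was 25.7, 25.6 and 24.1 CPM in WT-RA and 34.6, 38.7 and 37.1 in WT-O2. In KO it was 27.9, 27.9 and 26.2 CPM in room air and 34.1, 36.5 and 31.2 in hyperoxia. No hyperoxia lung fell within the range of the room air lungs. The log2 fold change was 0.55 ± 0.08 (SE, adjusted p = 0.000105) in WT and 0.31 ± 0.08 (adjusted p = 0.0076) in KO. The smaller rise in KO differed from that in WT by -0.24 ± 0.12 on the log2 scale, with an unadjusted p of 0.0605 and an adjusted p of 0.762, so a difference between genotypes was not shown.

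The cytokines that caspase-1 matures passed in different genotypes. Il18 (ENSMUSG00000039217) was counted at 5.76, 5.28 and 5.68 CPM in WT-RA lungs and at 3.00, 3.48 and 2.80 in WT-O2. In KO the level was 3.79, 4.62 and 3.87 CPM in room air and 2.94, 5.35 and 3.45 in hyperoxia. The WT groups were well apart, and the KO groups overlapped with KO-O2 2 the highest. The fall in WT was -0.85 ± 0.20 on the log2 scale (SE, adjusted p = 0.00405), and with erythroid markers as a covariate it was -0.56 ± 0.35 and did not pass (adjusted p = 0.289). Because that covariate follows exposure in WT, it cannot separate blood content from hyperoxia. The change in KO was -0.07 ± 0.20, and the difference between the genotypes was 0.78 ± 0.29, with an unadjusted p of 0.0164 and an adjusted p of 0.619.

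Il1b (ENSMUSG00000027398, on chromosome 2) passed in KO lungs. It was counted at 4.92, 4.04 and 2.75 CPM in WT-RA and 3.61, 3.89 and 2.20 in WT-O2, which overlapped. In KO it was 1.78, 2.21 and 2.14 CPM in room air and 5.74, 3.19 and 2.64 in hyperoxia. The KO groups did not overlap, with KO-O2 1 the highest of all 12 lungs. The rise in KO was 0.92 ± 0.31 on the log2 scale (SE, adjusted p = 0.0302), and without KO-O2 1, the lung with liver markers, it was 0.51 (adjusted p = 0.203). The WT change was -0.27 ± 0.30. KO-RA lay below WT-RA without overlap, by -0.93 ± 0.31 (unadjusted p = 0.00908, adjusted p = 0.271), and the difference between the genotypes in the response was 1.19 ± 0.43 (unadjusted p = 0.0153, adjusted p = 0.619).

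Compared between genotypes, the members other than Gsdmd did not pass in either air. In KO-O2 against WT-O2 lungs Gsdmd was the 1 member of 10 that passed, where 0.0416% of all genes did, 0.0357% by falling, and the 1 without overlap, against 12.2% of all genes. The other 9 log2 fold changes ran from -0.23 for Casp4 to 0.34 for Il18. In KO-RA against WT-RA lungs Gsdmd was again the 1 that passed, against 0.488% of all genes, 0.345% lower in KO. The groups did not overlap for 5 members (Gsdmd, Casp1, Il1b and Il18 below, Ninj1 above), against 15.2% of all genes. There 5 members had an unadjusted p under 0.05 (Gsdmd, Casp1, Il1b, Il18 and Aim2), all lower in KO-RA, where 10.5% of all genes had one, and the median over the 10 was -0.37, beside -0.00 for all genes. In the same comparison 3 of 15 macrophage markers passed, all lower in KO-RA, and their summed level was 2682 to 3794 CPM in WT-RA and 2609 to 2781 in KO-RA. The part of macrophage content, and of sex, in these values was not tested. For the interaction of genotype and hyperoxia 0 of 10 members passed in edgeR and 0 in DESeq2, against 0.00595% of all genes in edgeR, and 4 had an unadjusted p under 0.05 in edgeR (Gsdmd, Casp1, Il1b and Il18), against 6.72% of all genes. DESeq2 called 110 genes for the interaction and edgeR 1, and the share of all genes passing in DESeq2 was not taken.

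**Figure D2:**
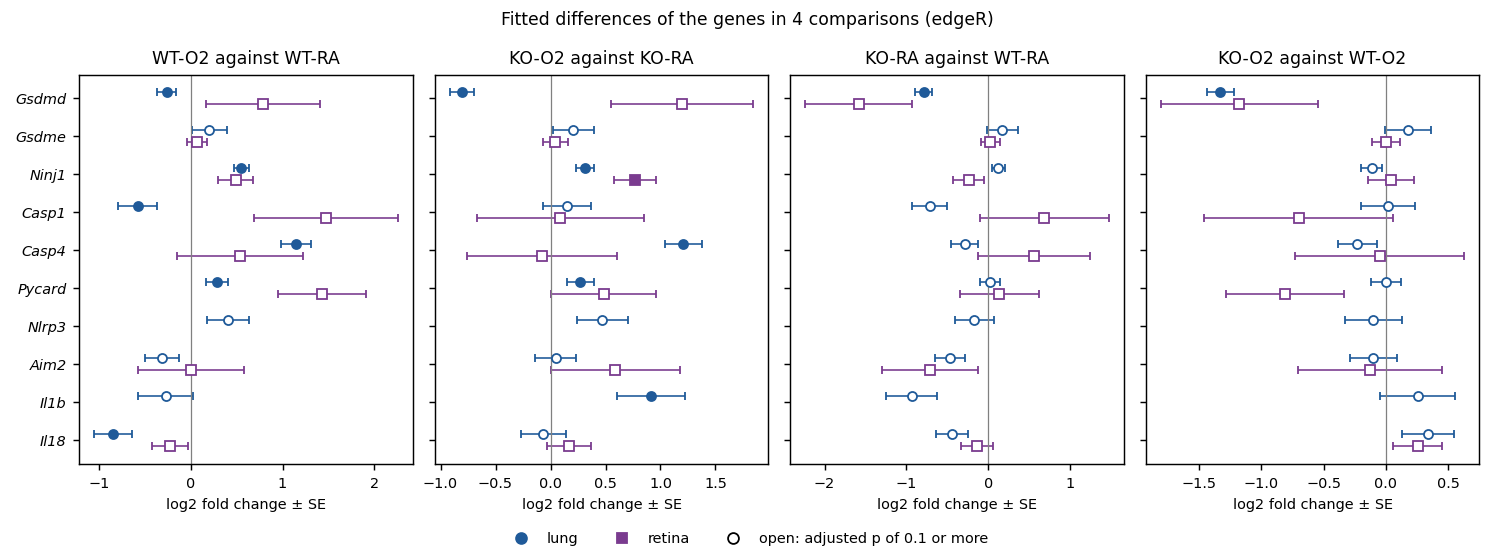
Fitted log2 fold change (horizontal axes) with its SE for each of the 10 genes (vertical axis) in 4 comparisons. Circles are lung and squares retina, and filled symbols have an adjusted p under 0.1. In the right-hand panels Gsdmd in the lung is the filled symbol, at -0.79 in room air and -1.33 in hyperoxia. Nlrp3 and Il1b have no retina symbol because they were too low to test.

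The wider pathway, the members included, was described through 7 lists. Of 72 tested in the lung, 22 rose and 16 fell with hyperoxia in WT, and 25 rose and 9 fell in KO. Together 52.8% and 47.2% of them passed, close to the 49.2% and 46.7% of all genes. Among the adaptor, caspases and regulators, 6 of 15 rose and 5 fell in WT, and 5 rose and 2 fell in KO. Casp12, the caspase next to Casp4 on chromosome 9, rose by 1.55 ± 0.16 in WT (SE, log2, adjusted p = 3.3e-06) and 1.35 ± 0.16 in KO (adjusted p = 1.32e-05). Gbp2, a guanylate-binding protein that coats cytosolic bacteria, fell by 1.09 ± 0.17 and 0.48 ± 0.17. Txnip, a thioredoxin-binding protein linked to NLRP3 activation, fell by 1.00 ± 0.19 and 1.07 ± 0.19.

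Among the sensors 2 of 13 rose and 3 fell in WT lungs, and 3 rose and 2 fell in KO. Zbp1, a sensor of Z-form nucleic acids, rose by 0.58 ± 0.26 in WT and 0.95 ± 0.27 in KO (SE, log2, adjusted p = 0.0879 and 0.0119). Nlrc4, the platform of the NAIP inflammasome, fell by 0.65 ± 0.24 and 0.55 ± 0.24. Its partners Naip2 and Naip5 gave 0.52 and -0.57 in WT and 0.64 and -0.38 in KO, and all 4 values passed. The Naip genes are near-identical copies whose reads the counting could have split, so these opposite values are uncertain. In KO-RA against WT-RA 1 of 13 sensors passed, Nlrp10, at -1.02 ± 0.23 (adjusted p = 0.0944), which was named after its value was seen. With hyperoxia Nlrp10 fell by 0.51 in WT and rose by 0.55 in KO, and the difference between these had an adjusted p of 0.499.

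Both restraining and signaling genes of the IL-1 system passed in the lung. Il1rn, the natural receptor antagonist, rose by 0.61 ± 0.15 in WT and by 1.15 ± 0.15 in KO lungs (SE, log2, adjusted p = 0.00421 and 3.55e-05). Il1r2, a decoy receptor, rose by 1.54 ± 0.33 in WT (adjusted p = 0.00175), and its value in KO was 0.43 ± 0.32. Of 8 ligands and decoys tested, 2 rose and Il18 fell in WT, and Il1rn and Il1b rose in KO. Il1r1, the signaling receptor, rose by 0.94 ± 0.08 in both genotypes (adjusted p = 8.36e-07 and 9.7e-07). Its adaptor Myd88 rose by 0.29 ± 0.08 and 0.43 ± 0.08, and the kinase Irak1 by 0.47 ± 0.07 and 0.28 ± 0.07. Sigirr, which dampens the pathway, fell by 0.83 ± 0.12 and 0.88 ± 0.12. Of the 12 receptors and signaling genes 5 rose in WT and 7 in KO, and Sigirr alone fell in each.

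Genes that prime inflammasomes by transcription went both ways. Of 13, 6 rose and 3 fell in WT lungs, and 7 rose and 3 fell in KO, with medians of 0.32 and 0.49 on the log2 scale. Cd14, the lipopolysaccharide coreceptor, rose by 0.89 ± 0.11 and 0.87 ± 0.11 (SE). Rela, an NF-kB subunit, rose by 0.65 ± 0.10 and 0.70 ± 0.10, while Nfkb1, which encodes another subunit, fell by 0.59 ± 0.07 and 0.56 ± 0.07. Irf1, an interferon regulatory factor, fell by 0.91 ± 0.09 and 0.87 ± 0.09. Of 8 genes of membrane rupture and repair Ninj1 was the one that rose in each genotype, and Vps4a and Chmp2a, of the ESCRT machinery that repairs membranes, fell by 0.22 ± 0.08 and 0.23 ± 0.09 in WT.

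**Figure D3:**
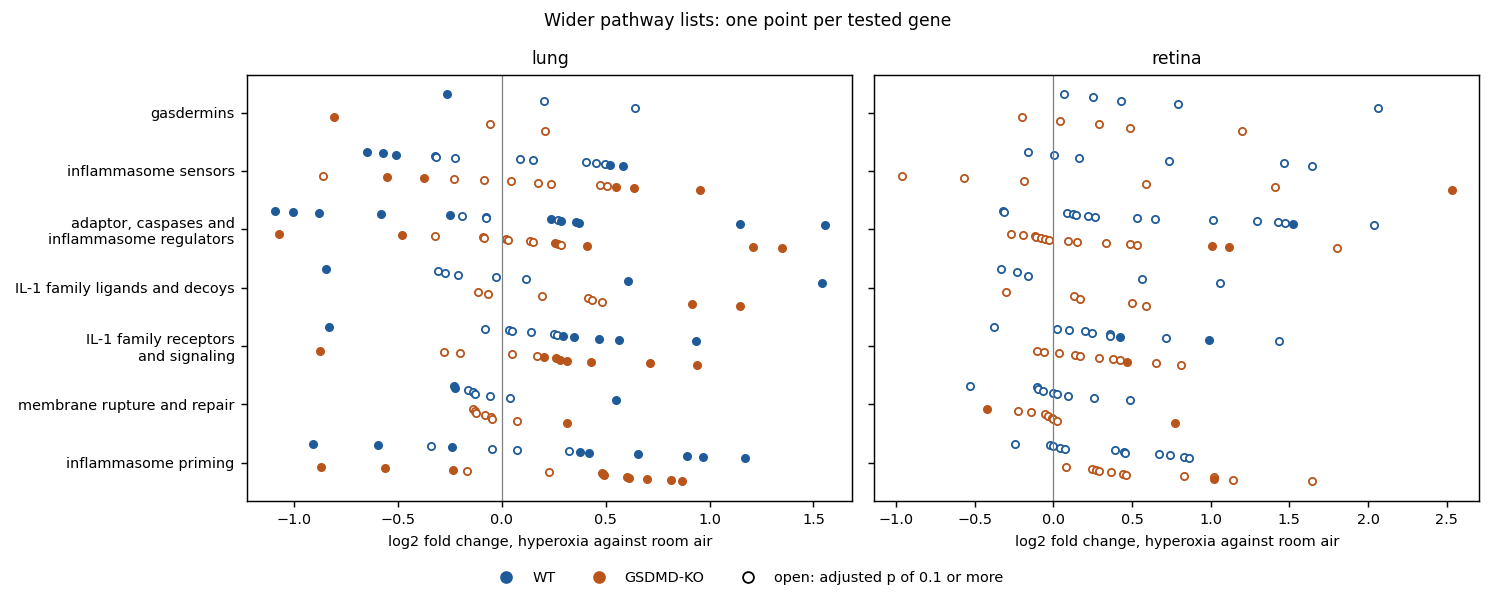
Log2 fold change with hyperoxia (horizontal axes) of each tested gene of the 7 pathway lists (vertical axis), in the lung and the retina. Blue is WT, orange is GSDMD-KO, and filled points have an adjusted p under 0.1. In the lung filled points lie on both sides of 0 in most lists, and in the retina most points are open.

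Markers of monocytes, macrophages and T, B and NK cells moved with hyperoxia in the lung beside these genes, and those of red cells in WT. The counts that follow have to be read against all genes tested. Of these 24.5% rose and 24.7% fell in WT, and 23.3% rose and 23.4% fell in KO. The erythroid markers summed to 15797 to 18192 CPM in WT-RA and 2951 to 4187 in WT-O2, with 9 of 11 falling, and to 12727 to 26899 in KO-RA and 6014 to 29964 in KO-O2, which overlapped, with 3 falling. The 7 monocyte markers summed to 1680 to 2138 CPM in room air and 4013 to 5684 in hyperoxia, with 4 rising in each genotype, 2 falling in WT and 1 in KO. The 15 macrophage markers summed to 2609 to 3794 CPM in room air and 1937 to 2617 in hyperoxia, although 9 rose and 3 fell in WT and 11 rose and 3 fell in KO. T, B and NK cell markers summed to 115 to 196 CPM in room air and 46.4 to 54.8 in hyperoxia. Of the 10 tested, 8 fell in WT, and 6 fell and 1 rose in KO. Neutrophil markers summed to 62.7 to 145 CPM in room air and 64.8 to 74.8 in hyperoxia, which overlapped. Of the 10 neutrophil markers tested, 1 rose in WT and 2 fell in KO. Endothelium markers summed to 4003 to 4794 CPM in room air and 3000 to 3864 in hyperoxia. Of the 8 tested, 5 fell in WT, and 4 fell and 1 rose in KO. Lung epithelium markers summed to 31388.5 to 36627 CPM in room air and 21620 to 27701 in hyperoxia. Of the 12 tested, 3 rose and 5 fell in WT, and 2 rose and 5 fell in KO. The part of these cell types in the members' changes was not tested.

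In the retina most of the machinery was counted at low levels. Casp1, Casp4, Nlrp3 and Il1b had a mean under 1 CPM in every group, and no member passed between the genotypes. There 0 of 8 passed in edgeR and DESeq2 in either air, against 0.00522% of all genes in room air and 1.27% in hyperoxia in edgeR. At an unadjusted p under 0.05 stood 1 member (Gsdmd) in room air and 0 in hyperoxia, against 12.7% and 12.6% of all genes. In room air Ninj1 was the 1 member without overlap, lower in KO-RA, against 17.7% of all genes. For the interaction 0 of 8 passed in edgeR and DESeq2 and 0 had an unadjusted p under 0.05, against 0.00522% and 10.6% of all genes in edgeR. DESeq2 called 569 genes for the interaction and edgeR 1. Between genotypes, with a fold of 2 required, DESeq2 called 30 in room air and 174 in hyperoxia, and edgeR 1 and 56. Shares of all genes passing in DESeq2 were not taken. Of the 8 members tested, 0 passed in WT with hyperoxia in edgeR, where 5.16% of all genes did. In edgeR 2 had an unadjusted p under 0.05 (Pycard and Ninj1), against 17.4% of all genes. In DESeq2 1 member passed (Pycard), and the share of all genes passing there was not taken. With a fold of 2 required as well, DESeq2 called 647 genes in this comparison and edgeR 391. In KO 1 of 8 passed, by rising, where 7.82% of all genes did and 4.38% rose. The groups did not overlap for 2 of 8 in WT (Casp1 and Ninj1) and 3 in KO (Gsdmd, Pycard and Ninj1), against 24% and 26.2% of all genes. The median log2 fold change of the 8 was 0.51 in WT and 0.33 in KO, beside 0.00 for all genes.

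Ninj1 was the member that rose in the retina, in KO. Its level was 17.6, 16 and 15.9 CPM in WT-RA, 20.9, 24.0 and 24.7 in WT-O2, 12.0, 14.2 and 15.8 in KO-RA, and 19.4, 32.7 and 19.5 in KO-O2. Every hyperoxia retina stood above every room air retina, with KO-O2 2 the highest. The log2 fold change was 0.77 ± 0.19 in KO (SE, adjusted p = 0.0476) and 0.49 ± 0.19 in WT (adjusted p = 0.207), and the difference between them was 0.28 ± 0.27 (adjusted p = 0.739). The KO value passed under 13 of 18 alternatives. The call was lost without KO-RA 1 (0.67), KO-RA 2 (0.78) or KO-O2 2 (0.48), with only the groups compared in the fit (0.77) and without the retinas rich in lens markers (0.87), with adjusted p from 0.111 to 0.162. The WT value passed with only the groups compared (0.50, adjusted p = 0.0847) and without KO-O2 2 (0.49, adjusted p = 0.0654), where the KO value did not. In the lungs the same gene had risen by 0.55 and 0.31, in other mice after another exposure, and the tissues were not compared by a test.

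Gsdmd in the retina was low and uneven. It was counted at 4.08, 0.419 and 2.70 CPM in WT-RA, 5.70, 2.90 and 3.85 in WT-O2, 0.980, 0.774 and 0.636 in KO-RA, and 1.11, 1.44 and 2.95 in KO-O2. The retina labelled WT-RA 2, with 11 counts and many lens transcripts, lay below every KO retina, so the Gsdmd level goes against its label. By qRT-PCR the study reported a rise of Gsdmd with hyperoxia in WT retinas and hardly any Gsdmd in KO retinas. In the counts KO-O2 3, at 2.95 CPM, lay above WT-O2 2, at 2.90, and the reason was not tested. KO-RA against WT-RA gave -1.58 ± 0.65 (SE, log2, unadjusted p = 0.033, adjusted p = 0.346), and KO-O2 against WT-O2 gave -1.17 ± 0.63 (adjusted p = 0.482). With hyperoxia the log2 fold change was 0.79 ± 0.62 in WT and 1.20 ± 0.65 in KO, where the groups did not overlap, and neither passed. Without WT-RA 2 the WT value was 0.29 and KO-RA against WT-RA was -2.08 (adjusted p = 0.823 and 0.385). Without the 3 lens-rich retinas, WT-RA 2 among them, these were 0.02 and -2.22 (adjusted p = 1 and 0.216).

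Pycard was counted at 0.360, 0.953 and 1.54 CPM in the WT-RA retinas and at 2.39, 1.5 and 3.81 in WT-O2. In KO it was 0.913, 1.14 and 1.07 CPM in room air and 1.18, 1.64 and 1.56 in hyperoxia. The WT groups overlapped by a single pair, WT-RA 3 and WT-O2 2, and the KO groups did not overlap. The log2 fold change was 1.43 ± 0.48 in WT (SE, unadjusted p = 0.0127, adjusted p = 0.153) and 0.48 ± 0.48 in KO. The WT value passed in DESeq2 (adjusted p = 0.0777), without WT-RA 3 (0.0709) and without the lens-rich retinas (2.81, adjusted p = 0.0832).

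Il18 and Gsdme were among the better counted members in the retina, and neither passed a comparison. Il18 had group means of 15.3, 13.0, 13.8 and 15.5 CPM in WT-RA, WT-O2, KO-RA and KO-O2, and its log2 fold change with hyperoxia was -0.23 (95% interval -0.66 to 0.20) in WT and 0.17 (-0.26 to 0.60) in KO. Gsdme ranged from 11.0 to 14.1 CPM over the 12 retinas, with changes of 0.07 (-0.18 to 0.31) and 0.04 (-0.21 to 0.29). These intervals leave out a change of 2-fold in either direction. Aim2 ranged from 1.00 to 4.90 CPM with full overlap, and its intervals with hyperoxia, -1.26 to 1.27 in WT and -0.69 to 1.87 in KO, were wide.

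Casp1 and Casp4 were close to the limit of counting in the retina. Casp1 had 1 to 15 counts a library, at 0.0428 to 0.191 CPM in WT-RA and 0.306 to 0.468 in WT-O2, which did not overlap, and its log2 fold change was 1.47 ± 0.78 (SE, adjusted p = 0.363). In KO it was 0.168 to 0.238 CPM in room air and 0.170 to 0.342 in hyperoxia. Casp4, the member that rose most in the lung, was counted at 0.114 to 0.967 CPM over all retinas, and its log2 fold changes with hyperoxia were 0.53 ± 0.69 and -0.08 ± 0.68. Nlrp3 had 0 to 16 counts a library and Il1b 0 to 57, the highest being WT-O2 2, while the 3 KO-RA retinas held 1 count of Il1b in all. Nlrp3 and Il1b were not tested, and no difference in Casp1 or Casp4 was detectable at this depth.

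**Figure D4:**
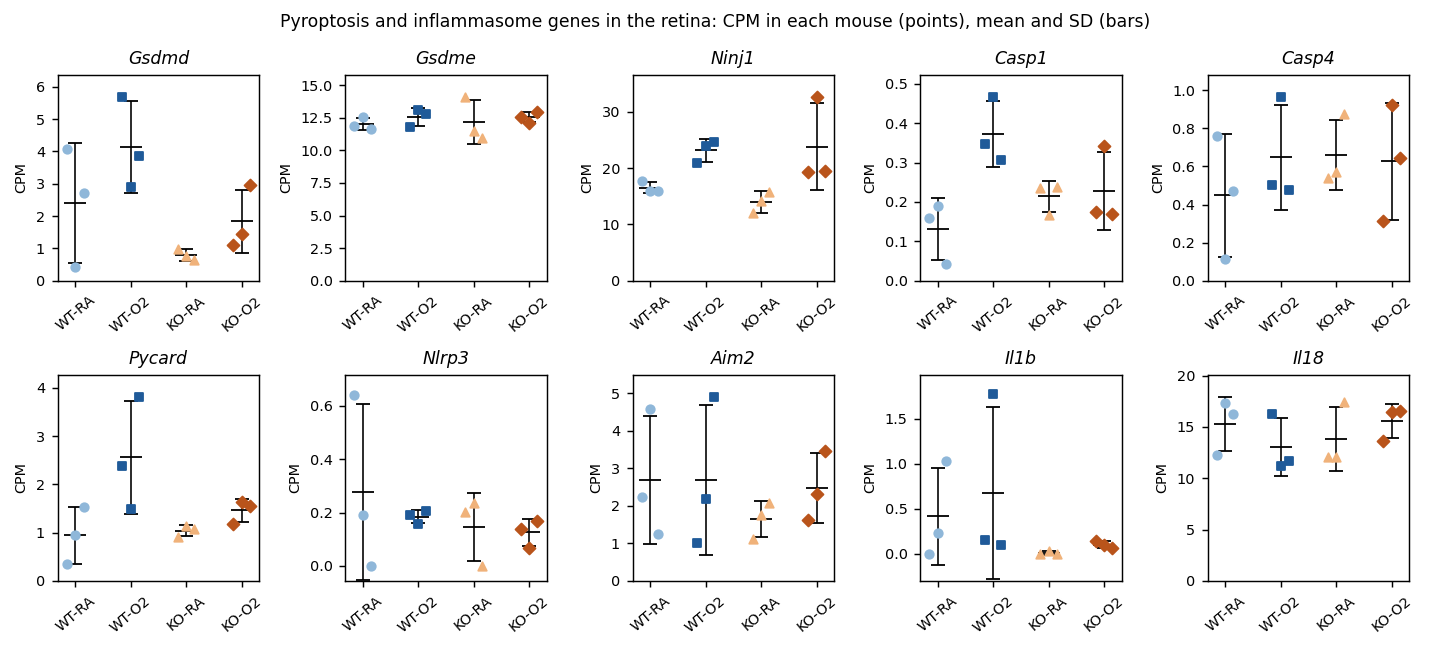
CPM (vertical axes) of the 10 genes in every retina, with the 4 groups along the horizontal axes. Points are single mice and bars the mean and SD of 3, which can reach below 0 for genes with few counts. Ninj1 is higher in every hyperoxia retina, from 19.4 to 32.7 CPM, than in every room air retina, from 12.0 to 17.6 CPM, while Casp1, Casp4, Nlrp3 and Il1b average under 1 CPM.

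On the wider lists 3 of 63 genes tested in the retina rose with hyperoxia in WT, and 6 rose and 1 fell in KO, or 4.76% and 11.1%, beside 5.16% and 7.82% of all genes. Among them Casp8, the apical caspase of death receptors, which can also cleave gasdermin D, rose by 1.52 ± 0.27 in WT and 1.11 ± 0.26 in KO (SE, log2, adjusted p = 0.0153 and 0.0427). In the lung Casp8 fell by 0.25 in WT, and its value in KO was 0.03. Il1r1 and Myd88 rose in WT, by 0.99 ± 0.27 and 0.42 ± 0.12. Beside Ninj1, Zbp1, Txnip, Irak1 and Tnfrsf1a, a receptor of TNF, rose in KO, by 2.53 ± 0.74, 1.01 ± 0.29, 0.47 ± 0.13 and 1.02 ± 0.31. Chmp1b, of the ESCRT machinery, fell by 0.42 ± 0.12 in KO. Microglia markers rose over the same comparisons, 6 of 15 in WT and 9 in KO, with a summed level of 84.6 to 124 CPM in room air and 162 to 237 in hyperoxia. Endothelium markers rose in 7 of 8 in WT and 6 in KO, from 119 to 146 CPM in room air to 207 to 279 in hyperoxia. Macrophage markers summed to 57.5 to 89.9 CPM in room air and 122 to 188 in hyperoxia. Of the 12 macrophage markers tested, 4 rose in WT and 5 in KO. Monocyte markers summed to 30.5 to 44.2 CPM in room air and 85.2 to 144 in hyperoxia, but only 1 of 7 rose in each genotype. The median log2 fold change of the 7 was 0.88 in WT and 0.24 in KO, so in KO the sum does not stand for the whole list. The part of these cell types in the changes of the wider lists and of the members was not tested.

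The genes most like each member over the 12 samples of a tissue were found by Pearson correlation of log2(CPM + 1) among 14681 genes of at least 1 CPM in the lung and 15692 in the retina. The samples share group structure, so no p is given. In the lung Casp4 was most like Slc2a1 (0.983), a glucose transporter, and Eps8 (0.982), and Ninj1 was most like Fstl3 (0.982) and Sbno2 (0.976). Gsdmd was most like P2rx4 (0.881) and Rnf34 (0.864). In the retina Ninj1 was most like Bmp1 (0.933) and Plod1 (0.926). Of the other members in the lung, Nlrp3 was most like Aar2 (0.948) and Rnh1 (0.939), Pycard Rgs5 (0.929) and Rbbp8nl (0.928), and Aim2 Glce (0.934) and Abcg1 (0.901). Casp1 was most like Fbp1 (0.905) and Trdn (0.888), Il18 Txnrd3 (0.909) and Cript (0.903), Il1b Wdr11 (0.892) and Traf6 (0.878), and Gsdme Mum1l1 (0.841) and Dctn4 (0.829). In the retina Gsdmd was most like Gm26897 (0.921) and Hebp1 (0.918), Pycard Nuf2 (0.927) and Trim34a (0.916), Aim2 Hps1 (0.895) and Gm20637 (0.857), Gsdme Rhbdl3 (0.87) and Ssr1 (0.838), and Il18 AC125059.1 (0.839) and Scara5 (0.801).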

How the data were processed

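The authors assigned the reads, sequenced at BGI, to mouse transcripts with kallisto, summed them per gene with tximport, and deposited the expected counts, which need not be whole, as 1 table for each tissue with a column per mouse, not divided by library size. The submitters' processing notes name mm10, FastQC and kallisto, whereas the study's methods name a later build, and the settings of tximport are not given in the sources used here. Values above 0 were whole within 0.001 in 44.9% of cases for the lung and 0.35% for the retina, whose counts may therefore have been rescaled. Tests were made within a tissue only. Symbols came from GENCODE vM21 (GRCm38) by gene identifier. Strand use in the counting was not given, and 5 members (Gsdme, Pycard, Il1b, Il18 and Aim2) lie within or across the span of a gene on the opposite strand. Whether their exons overlap, and so share reads, was not tested.

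Rounded counts were fitted with edgeR 4.0.16 under R 4.3.3, using filterByExpr by group, TMM, 1 model of 4 groups over the 12 samples of a tissue, glmQLFit with robust=TRUE and glmQLFTest, and p values were adjusted by Benjamini-Hochberg over all genes tested. A gene passed at an adjusted p under 0.1 and was called when p was also under 0.05 and the fold change at least 2 (no fold was required for the interaction), thresholds chosen after the study's methods. The SE was taken as the size of the log2 fold change divided by the root of the F statistic, and intervals are 95% intervals from the same fit. The comparisons were hyperoxia in each genotype, genotype in each air, and their interaction. The fit was also run on simulated counts for WT-O2 against WT-RA, which lacked the lens, sex and blood differences of these libraries. Its outcome is not given here and is not used in support of any result. Samples were grouped by the genotype and treatment on their labels.

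The members and lists were chosen with earlier results of these data known. Named are all 10 members, of each wider list and tissue at most the 4 genes with the smallest p over the hyperoxia comparisons among those that passed there, and the 2 genes most like each member with a mean of at least 1 CPM in a tissue. The alternatives were RLE normalization, no filter, DESeq2 1.42.0, only the groups compared, Y-linked expression as a covariate, a fold of 1.5, and each library left out in turn. Leaving out the retinas with over 1000 CPM of lens markers and a covariate of erythroid markers in the lung were chosen after seeing the data. A mouse counted as Y-positive when 4 Y-linked genes summed to over 20 CPM.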

Additional observations from a re-analysis of the deposited data

Results flagged for a closer look

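Gsdmd in the KO mice went opposite ways with hyperoxia in the 2 tissues. All 3 KO-O2 lungs lay below all 3 KO-RA lungs, with a log2 fold change of -0.81. All 3 KO-O2 retinas lay above all 3 KO-RA retinas, with a log2 fold change of 1.20. Such a lack of overlap was common, seen between these groups for 52.4% of all genes in lungs and 26.2% in retinas. How many genes went opposite ways was not taken, so this is not shown to be special to Gsdmd. The retina levels rest on 16 to 29 counts in KO-RA and 32 to 87 in KO-O2, with KO-O2 3 the highest. The difference between tissues was not tested, since the tables were made separately, the mice and exposures differed, and the retina value itself did not pass (adjusted p = 0.333 from edgeR).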

How the results depend on the processing

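Casp4 and Ninj1 in the lung, and Gsdmd in KO lungs, kept direction and side of the threshold with hyperoxia under all 18 alternatives. Of 1585 values of single members under alternatives, 215 passed as before in the same direction, 37 lost the threshold and 10 gained it, all in the same direction, and 1323 passed in neither, of which 88 differed in sign. With genes called at p under 0.05, adjusted p under 0.1 and, except for the interaction, a fold of 2, the counts moved as follows, and the cause was not tested except where fewer samples or another fold set them. The lung interaction gave 1 gene, and 2 without a filter. DESeq2 gave 31 in KO-O2 against WT-O2 lungs (4 in edgeR), 71 in KO-RA against WT-RA (23) and 110 for the interaction. In the retina it gave 1 member and 647 genes in WT (0 and 391), 663 in KO (420), 174 and 30 between genotypes in hyperoxia and room air (56 and 1), and 569 for the interaction (1). With only the groups compared, the lung genotype counts were 8 in hyperoxia and 10 in room air, and the retina gave 1 member in WT, 0 members in KO and 0 genes in KO-RA against WT-RA. With Y-linked expression as a covariate the counts were 2 in hyperoxia lungs between genotypes, 0 members and 0 genes in room air lungs, 0 for the lung interaction and 37 in hyperoxia retinas. A fold of 1.5 gave 3923 and 3595 genes in WT and KO lungs (1952 and 1783), 50 in KO-RA against WT-RA lungs, 707 and 879 in WT and KO retinas, and 156 in KO-O2 against WT-O2 retinas.

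Chosen after seeing the data, erythroid markers as a covariate left 3 members in WT lungs (6 before), 0 members and 0 genes in KO-O2 against WT-O2 and 0 for the interaction. The share of all genes passing was not taken under the alternatives, so a change in a member count is not a result about the members. Without the 3 lens-rich retinas 1 member passed in WT and 0 in KO, and 27, 0 and 0 genes were called between genotypes in hyperoxia, in room air and for the interaction. Leaving out each library in turn gave 3 to 7 members in WT lungs (3 without WT-RA 2, 7 without WT-RA 3), 4 to 5 in KO, 0 to 3 in KO-RA against WT-RA (0 without KO-RA 3, 3 without WT-RA 3) and 0 to 1 in WT and in KO retinas. Over the same settings 1865 to 2069 genes were called with hyperoxia in WT lungs and 1692 to 1855 in KO. Genes called ran from 1 to 23 in KO-O2 against WT-O2 lungs, 1 to 109 in KO-RA against WT-RA and 0 to 45 for the interaction, the lowest being without KO-O2 1 or KO-O2 2, without KO-RA 3, and without KO-O2 1, KO-RA 2 or KO-RA 3, and the highest without KO-O2 3, WT-RA 3 and WT-RA 3. In the retina they ran from 196 to 504 in WT, 151 to 439 in KO, 6 to 83 and 0 to 1 between genotypes in hyperoxia and room air, and 0 to 340 for the interaction, the furthest from the full set being without WT-RA 2, KO-O2 2, KO-O2 3 and KO-O2 1 for WT, KO, hyperoxia and the interaction. No paired analysis was possible because the labels name single mice and give no replicate numbers shared between groups. Low counts limit Casp1, Casp4, Nlrp3 and Il1b in the retina, and nothing was tested for protein or for cleavage of gasdermin D.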
